A study of Homo sapiens and Mus musculus with 19 samples.

Results

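In mouse cerebellum at P21, 798 autosomal CCGG sites carried 5-hydroxymethylcytosine (5hmC) on at least 30% of their tags in each of 3 libraries. They were chosen among 248967 sites with at least 20 tags in all 5 mouse libraries, called measured sites here, and made up 0.321% of them. The measured sites were 16.4% of the 1519513 autosomal CCGG sites listed. The choice rested on the P21 5hmC shares alone, so those shares, and their difference from 32 weeks, are given as a description.

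Both groups were bulk cerebellum of Mus musculus, with 2 libraries at 32 weeks and 3 at P21, and the labels give no strain, sex, genotype or treatment. At each CCGG site the assay, named DARESOME, counts tags from unmethylated, 5-methylated (5mC) and 5-hydroxymethylated DNA, and a share is the percentage of 1 state among the tags of a site. The other 14 libraries of the series come from human cell lines and enter no comparison here. The labels do not say whether the libraries came from separate animals, so p-values cover just the variation from library to library, part of which can be technical. No expression was measured and no mouse gene annotation was used, so the tissue label was not checked against marker genes and sites are given by position alone, without gene, exon or intron.

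TET enzymes make 5hmC by oxidising 5mC, and further oxidation followed by base repair can return the site to unmodified cytosine. In most tissues 5hmC is scarce, while neurons hold much of it, mainly over gene bodies and enhancers. In the cerebellum it is known to accumulate in Purkinje and granule cells as they mature after birth. A share in bulk tissue counts DNA molecules over all cells, so that a larger share of cells carrying 5hmC and a higher level in each cell cannot be told apart.

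The mouse libraries held 17406896 to 25952928 tags. Over all autosomal tags the 5hmC share was 8.98% and 10.4% at 32 weeks, against 7.26%, 6.23% and 5.97% at P21. P21 replicates 1 and 3 held 0.217% of their tags on chromosome Y, while both 32-week libraries and P21 replicate 2 held 0.00836% to 0.0108%. Chromosome X held 1.95% and 1.996% of tags in P21 replicates 1 and 3. In both 32-week libraries and P21 replicate 2 it held 3.79% to 3.85%. Age and this class of libraries therefore overlap in part, and fits with the class as a term are given where they change a count. The member sites had a median of 31 tags in each 32-week library and of 38, 35 and 46 in P21 replicates 1, 2 and 3, with a range of 20 to 88. At 20 tags, a share of 30% has an exact 95% interval (Clopper-Pearson) of 11.9% to 54.3%, so the value of a single site in a single library is loose. Intervals and limits here cover counting error only.

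At P21 the rich sites were still more often 5mC than 5hmC. With all tags of the 798 sites pooled, 5mC made up 48.2%, 50.7% and 49.99% of tags in P21 replicates 1, 2 and 3, and 5hmC 38.8%, 37.3% and 37.2%. The unmethylated share was 13.1%, 12.02% and 12.8%. All 3 states were therefore present at a typical member. The other measured sites held 7.21%, 6.16% and 5.88% 5hmC and 21.1%, 19.6% and 20.1% unmethylated tags in the same libraries. Only 19 members had more 5hmC than 5mC in all P21 libraries.

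At 32 weeks the 2 libraries differed in what they showed. The pooled 5hmC of the members was 37.7% in 32-week replicate 1 and 44.0% in replicate 2, a mean of 40.9% ± 4.44 (SD, n = 2), against 37.8% ± 0.872 (SD, n = 3) at P21. Replicate 1 lay inside the P21 range and replicate 2 above it. Pooled 5mC was 48.0% and 39.9% at 32 weeks, against 48.2%, 50.7% and 49.99% at P21, so that each 32-week value was below every P21 value, replicate 1 by little. Unmethylated tags made up 14.3% and 16.1% at 32 weeks, against 13.1%, 12.02% and 12.8% at P21. At the other measured sites this last order was reversed. There 17.5% and 19.2% were unmethylated in the 32-week libraries and 21.1%, 19.6% and 20.1% in those of P21. A choice for high 5hmC at P21 favours low shares of the other states there, so this contrast is a description. Of the modified tags of the members, 44.0% and 52.5% were 5hmC at 32 weeks, against 44.6%, 42.4% and 42.7% at P21.

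**Figure D1:**
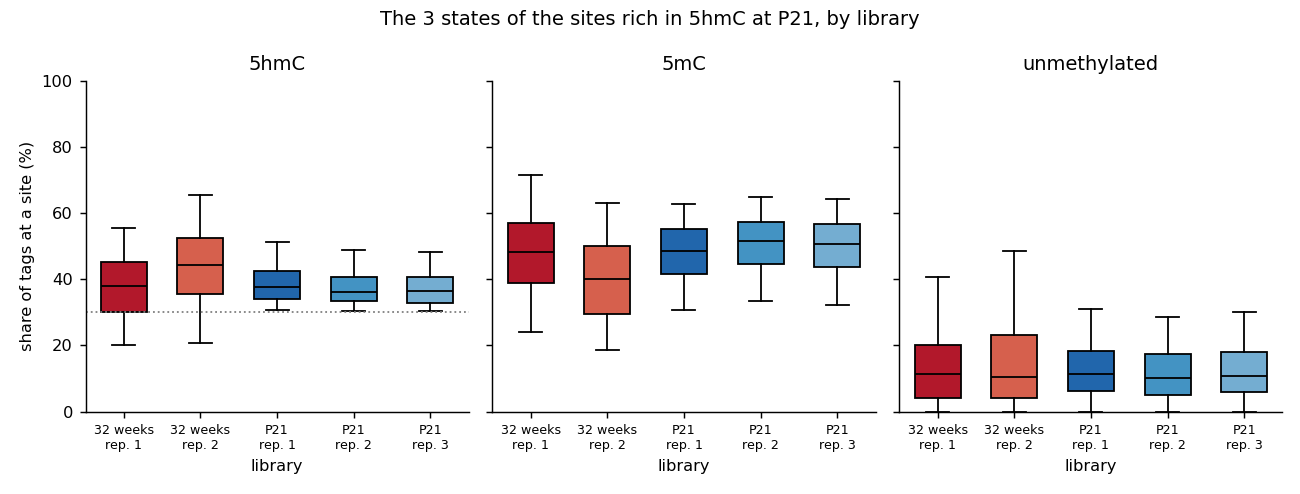
Share of tags (%) that were 5hmC, 5mC or unmethylated at the 798 sites, by library, with 32 weeks left of P21. Boxes give quartiles and median, whiskers the 5th and 95th percentile over sites, and the dotted line the 30% used for selection at P21. The median unmethylated share is 10.3% and 11.2% at 32 weeks against 10.2% to 11.4% at P21, while its 95th percentile is 40.8% and 48.7% at 32 weeks against 28.6% to 31.0% at P21.

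As the plot of the 3 states by library shows, the members covered a wide range at 32 weeks. Their 5hmC share then, averaged over both libraries, was under 10% at 4 sites, 10 to 20% at 13, 20 to 30% at 96, 30 to 40% at 238, 40 to 50% at 302, 50 to 60% at 127 and over 60% at 18. At P21 the averages lay at 30 to 40% at 588 sites, 40 to 50% at 202 and 50 to 60% at 8. The SD over sites at 32 weeks was 11.1 and 13.03 points in replicates 1 and 2, against 8.78 and 8.94 points from tag counting alone. The P21 spread is cut off at 30% by the selection and is no measure of the variation there.

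Most members were still rich at 32 weeks. In both 32-week libraries 562 members (70.4%) held at least 30% 5hmC, 173 did so in 1 of them and 63 in neither. Of the other measured sites 2.69% held it in both. Of the 7233 measured sites that reached 30% in both 32-week libraries, members were 7.77%. Members with more 5hmC than 5mC numbered 228 (28.6%) and 441 (55.3%) in the 32-week libraries, against 169 (21.2%), 111 (13.9%) and 119 (14.9%) in those of P21. The other measured sites also had more such sites at 32 weeks, with 1.33% and 2.91%, against 0.733%, 0.475% and 0.440% at P21. Both 32-week libraries held more 5hmC than 5mC at 162 members, and all 5 libraries did at 9.

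Site by site, 5hmC in both 32-week libraries exceeded that in all 3 P21 libraries at 186 members (23.3%), where 25.6% of all measured sites did so. Both lay below at 108 members (13.5%), where 3.04% of all measured sites did so, and at 504 the groups overlapped. Since the members were picked for high P21 values in these same libraries, nothing is read from these shares. The unmethylated share was higher in both 32-week libraries than in any P21 library at 165 members (20.7%), where 7.36% of all measured sites had this order. It was lower in both at 127 members (15.9%), where 15.9% of all measured sites had that order. The 3 states share the tags of a site, so a choice for high 5hmC at P21 favours a low unmethylated share there. Nothing is therefore read from these orders of the unmethylated share either. The 186 and 108 sites were sorted by the order of their 5hmC itself, so the medians of their 3 states are a description. At the 186 higher sites the median 5hmC was 49.3% at 32 weeks, against 36.2% at P21, and the median 5mC 40.8% at 32 weeks and 53.1% at P21. Their unmethylated share was 7.86% at 32 weeks and 9.67% at P21. At the 108 lower sites the median 5hmC was 24.8% at 32 weeks and 36.9% at P21, while the median 5mC differed little, at 45.9% at 32 weeks and 46.5% at P21. Their unmethylated share was 27.3% at 32 weeks and 14.8% at P21.

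Libraries that took no part in a choice give values free of it. Sites were chosen again by 30% 5hmC in 2 of the P21 libraries, with at least 20 tags in all 5, and read in the others. With P21 replicate 1 held out, 1224 sites had a median of 36.1% and 42.4% in the 32-week libraries, against 33.98% in the held-out one. With P21 replicate 2 held out, 1590 sites had 35.3% and 41.7% at 32 weeks, against 30% in the held-out library. With P21 replicate 3 held out, 1494 sites had 35.6% and 42.3% at 32 weeks, against 30.6% in the held-out library. In each case both 32-week medians stood above the held-out P21 median, by 5.26, 8.48 and 8.32 points on average. Of these sites 65.2%, 50.2% and 53.4% reached 30% in held-out replicates 1, 2 and 3. Both 32-week libraries exceeded the held-out one at 48.1%, 58.5% and 57.7% of the chosen sites, and at 39.6%, 44.997% and 47.4% of all measured sites. Both lay below it at 18.3%, 14.03% and 14.7% of the chosen sites, and at 19.8%, 14.9% and 12.8% of all measured sites. The median unmethylated share of the chosen sites was 12.1% and 12.5% at 32 weeks, against 13.2% in held-out P21 replicate 1. It was 10.9% and 11.1% against 11.8% in held-out replicate 2, and 10.5% and 11.1% against 12.2% in held-out replicate 3. At 40% 5hmC it was also lower at 32 weeks than in held-out replicates 1 and 2. Against held-out replicate 3 it was higher there, at 9.52% and 9.88% against 8.70%.

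**Figure D2:**
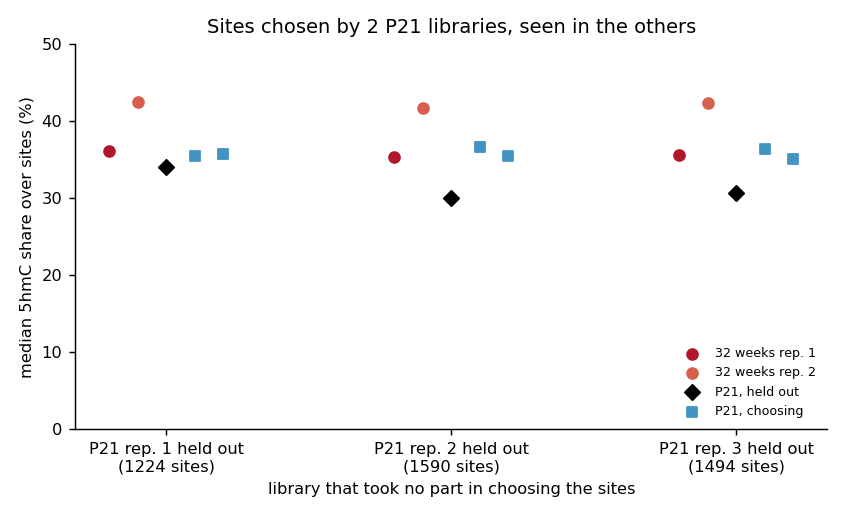
Median 5hmC share (%) over sites that reached 30% in 2 P21 libraries (blue squares), read in the held-out P21 library (black diamonds) and in both 32-week libraries (red circles, drawn left of P21). The 32-week medians lie at 35.3% to 42.4%, and the held-out P21 medians at 30% to 33.98%.

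Values did not jump at the threshold. The 287 members whose lowest P21 share was 30 to 32% had a median of 38.4% at 32 weeks and 34.98% at P21. The 409 measured sites just under the threshold, at 28 to 30%, had 38.3% at 32 weeks and 33.2% at P21. Nearest inside was chromosome 14 at 60530702, with 35.1% and 45.7% at 32 weeks, against 30.8%, 30% and 30.6% at P21. Chromosome 4 at 136790167 and chromosome 16 at 89915047 followed, with 34.3% and 21.8% on average at 32 weeks and 30.6% and 31.4% at P21. Nearest outside were chromosome 16 at 50200802, chromosome 12 at 4940458 and chromosome 1 at 81244253, whose averages were 36.2%, 35.8% and 29.5% at 32 weeks and 32.2%, 34.8% and 34.8% at P21.

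The most 5hmC at P21 stood on chromosome 18 at 33446775. That site had 55.6% and 65.6% 5hmC at 32 weeks, against 52.6%, 58.1% and 45.8% at P21, on 27 to 48 tags, and the groups overlap. Chromosome 11 at 6529456 had no unmethylated tag in any library, with 42.9% and 66.7% 5hmC at 32 weeks, against 51.9%, 54.5% and 50% at P21. With 21 to 27 tags per library, this allows up to 11.1% to 14.3% unmethylated in each (3 counts of the tags). Chromosome 14 at 93886612, chromosome 2 at 129999056 and chromosome 10 at 121955630 averaged 57.7%, 55.6% and 50% at 32 weeks and 51.6%, 51.5% and 51.3% at P21. Of these 5 sites, 4 averaged higher at 32 weeks, each with overlapping groups. The 6 members without an unmethylated tag in any library were 0.752% of the set, against 3.87% of the other measured sites.

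At 32 weeks the highest member was chromosome 11 at 32677559, with 66.7% and 78.3% 5hmC, against 37.0%, 45.8% and 37.5% at P21. Next came chromosome 16 at 37870562, with 71.4% and 63.2% at 32 weeks, against 51.1%, 42.2% and 37.1% at P21. At both the unmethylated share was at most 8.06% in every library. Chromosome 1 at 64091579, chromosome 5 at 114768881 and chromosome 10 at 20031735 followed with averages of 66.6%, 66.3% and 63.5% at 32 weeks and 41.5%, 46.6% and 39.8% at P21. The groups do not overlap at any of these 5 sites, an order that 25.6% of all measured sites had. A ranking by the 32-week share favours it.

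The lowest members at 32 weeks were largely unmethylated by then. On chromosome 12 at 38975873, 5hmC was 8.33% and 0% (2 of 24 and 0 of 22 tags, where 0 of 22 allows up to 13.6%) at 32 weeks, against 37.5%, 40.7% and 33.3% at P21. Unmethylated tags made up 45.8% and 77.3% there at 32 weeks, against 22.5%, 18.5% and 19.05% at P21. On chromosome 6 at 54253564, 5hmC was 6.25% and 3.85% at 32 weeks, against 37.1%, 42.4% and 54.5% at P21. Its unmethylated share was 56.2% and 84.6% at 32 weeks, against 25.7%, 24.2% and 21.2% at P21. Chromosome 7 at 16150799, chromosome 12 at 78982079 and chromosome 9 at 108188651 averaged 9.31%, 9.63% and 10.7% 5hmC at 32 weeks and 39.9%, 33.8% and 32.3% at P21. Their unmethylated shares averaged 55.95%, 73.9% and 70.9% at 32 weeks and 19.04%, 29.9% and 21.3% at P21. At all 5 sites the groups do not overlap in 5hmC or in the unmethylated share, orders that 3.04% and 7.36% of all measured sites had. These sites were picked for high 5hmC at P21 and ranked by low 5hmC at 32 weeks. That choice favours both orders, so they are a description.

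A fit of 5hmC against other tags over all measured sites (edgeR quasi-likelihood, Benjamini-Hochberg over 248967 sites, adjusted p under 0.05) called 0 members higher and 2 lower at 32 weeks. The 2 were chromosome 6 at 54253564, with a log2 odds ratio of -3.79, and chromosome 12 at 38975873, with -3.54. Over all measured sites 0.419% were called higher and 0.00522% lower. At an unadjusted p under 0.05, 56 of the 798 members differed, against 27284 of all 248967 measured sites. The median log2 odds ratio was 0.22 over the members and 0.59 over all measured sites. Relative to the odds of each library these medians were -0.42 over the members and 0.02 over all measured sites. That fit called 3 members lower and 0 higher, against 30 lower and 33 higher over all measured sites. In it 120 members differed at an unadjusted p under 0.05, against 14283 of all measured sites. The 2 calls became 0 without either 32-week library or P21 replicate 3, and 1 without P21 replicate 1 or 2. This contrast uses the P21 values behind the selection, so these counts are a description.

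The cytosines without 5hmC allow a test that the selection did not prejudge. Among non-5hmC tags, the balance of 5mC against unmethylated did not enter the choice, and it shifted towards unmethylated at part of the members. Of 730 members with at least 10 such tags in every library, 5mC fell against unmethylated tags at 21 (2.88%) and rose at 1 (edgeR, adjusted p under 0.05 over all 248561 sites tested). Over all sites tested 0.114% fell and 0.548% rose. The median log2 odds ratio was -0.24 over the members tested and 0.20 over the other sites. As a median over sites, 78.6% of non-5hmC tags of the members were 5mC at 32 weeks and 81.7% at P21, while the other sites had 92.5% at 32 weeks and 91.98% at P21. The other 68 members had too few non-5hmC tags.

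At the 21 sites where 5mC fell, which lay on 12 chromosomes, the medians of all 3 states differed between the ages. The median unmethylated share was 43.6% at 32 weeks and 11.2% at P21. The median 5mC was 24.9% at 32 weeks, against 49.7% at P21, and that of 5hmC 25.9% in the older group and 36.9% at P21. At all 21 the unmethylated share of both 32-week libraries lay above that of every P21 library, an order that 7.36% of all measured sites had and that such a call favours. At 14 their 5hmC lay below that of every P21 library, as at 3.04% of all measured sites, which is a description since the P21 values are those of the selection. Their log2 odds ratios ran from -4.85 to -2.32, with adjusted p from 5.20e-06 to 0.0427.

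The largest fall in points of 5mC among non-5hmC tags, of the 21 called, was on chromosome 7 at 101322353. There 5mC made up 35.3% and 0% of non-5hmC tags at 32 weeks, against 90.9%, 78.9% and 79.2% at P21 (log2 odds ratio -4.49, SE 0.796, edgeR adjusted p = 6.56e-05). Unmethylated tags made up 44% and 72% of its tags at 32 weeks, against 6.06%, 11.4% and 11.9% at P21, while 5hmC was 32% and 28% at 32 weeks, against 33.3%, 45.7% and 42.9% at P21. Libraries held 25 to 42 tags there, and the 0% in 32-week replicate 2 comes from 18 non-5hmC tags, which allows up to 16.7%.

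On chromosome 1 at 43512002, 5mC made up 30.4% and 25.8% of non-5hmC tags at 32 weeks, against 76.9%, 82.8% and 76.2% at P21 (log2 odds ratio -3.24, SE 0.661, edgeR adjusted p = 0.000944). On chromosome 3 at 138825704 it was 26.7% and 12.9% at 32 weeks, against 66.7%, 70.8% and 72.7% at P21 (-3.21, SE 0.651, adjusted p = 0.000873 by edgeR). On chromosome 11 at 69603397 it was 30% and 25.7% at 32 weeks, against 74.2%, 78.9% and 74.4% at P21 (-2.96, SE 0.605, adjusted p = 0.000969 by edgeR). At these 3 sites the unmethylated share was 52.5% to 69.2% at 32 weeks and 10.8% to 21.4% at P21. Their 5hmC averaged 20.6%, 20.8% and 23.6% at 32 weeks and 36.9%, 32.8% and 41.9% at P21. Without 32-week replicate 2 their edgeR adjusted p ran from 0.0548 to 0.0996, and that of the site on chromosome 7 at 101322353 was 0.133.

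The single rise was on chromosome 13 at 64019569, which had no unmethylated tag at 32 weeks. All 40 non-5hmC tags at 32 weeks were 5mC, which allows up to 7.5% unmethylated among them over both libraries (3 counts), against 84.6%, 74.1% and 65.4% 5mC at P21 (edgeR adjusted p = 0.0361). Its 5hmC was 37.1% and 45.5% at 32 weeks, against 39.5%, 32.5% and 35% at P21. The call was lost with any 1 library left out, with edgeR adjusted p from 0.0577 to 0.458.

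**Figure D3:**
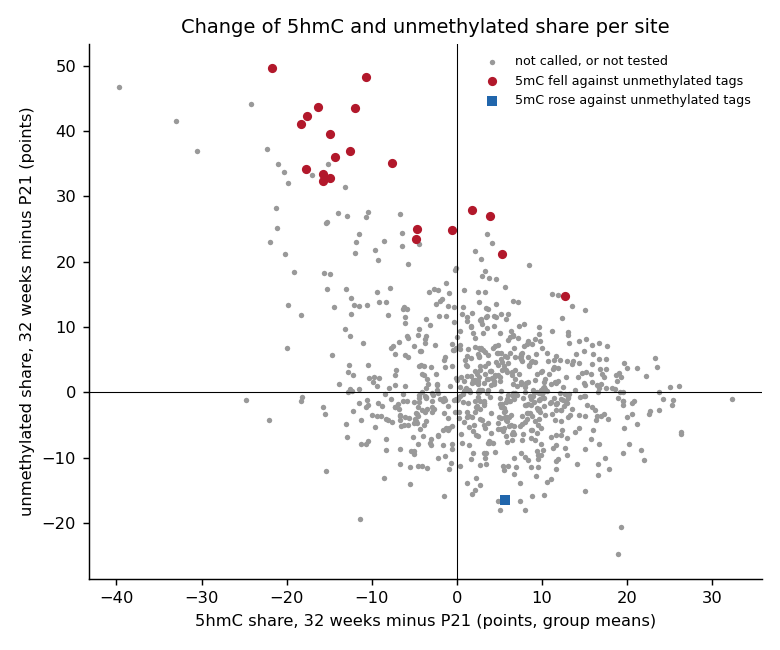
Difference in mean 5hmC share (x axis, percentage points, 32 weeks minus P21) and in mean unmethylated share (y axis) for each of the 798 sites. Red circles mark the 21 sites where 5mC fell against unmethylated tags and the blue square the 1 where it rose. The 3 states sum to 100%, so the axes are not independent.

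Falls of this kind were more frequent at sites with more 5hmC at P21. Among measured sites outside the set, 5mC fell against unmethylated tags at 0.00598% of 133734 sites with a mean P21 5hmC under 5%, and at 0.0372% of 64476 sites with 5 to 10%. At 10 to 20% it fell at 0.196% of 38177 sites, at 20 to 30% at 1.22% of 9818, and at 30% or more at 2.21% of 1626. Rises did not follow this order, with 0.446%, 0.633%, 0.786%, 0.519% and 0.369% in the same classes and 0.137% among the members. The median log2 odds ratio was 0.18, 0.23, 0.23, 0.07 and -0.14 from the lowest class to the highest. Members also started from less 5mC at P21. Within the middle range of the members, with 71.3% to 89.0% 5mC among non-5hmC tags at P21, 14 of 364 members fell (3.85%). In that range 0.230% of 44262 other sites fell, and 0.017% of 29376 sites with a mean P21 5hmC under 10%. The range was set on P21 values of the same contrast, and the P21 median of the other sites, 91.98%, lay above it. Other sites in the range can therefore be low at P21 by counting error, which favours a rise at 32 weeks. Their median log2 odds ratio was 0.25, against -0.22 for the members there, so this comparison is a description.

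**Figure D4:**
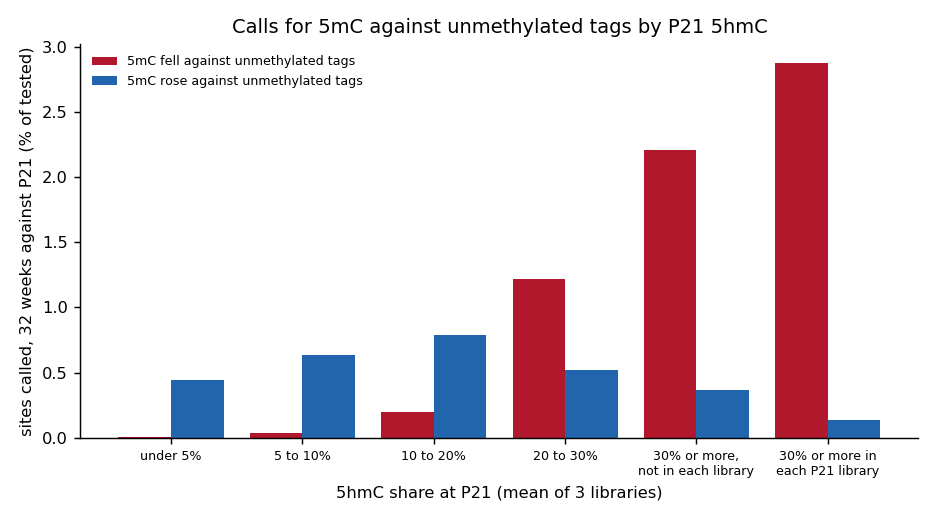
Percentage of tested sites at which 5mC fell (red) or rose (blue) against unmethylated tags at 32 weeks against P21 (edgeR, adjusted p under 0.05), by 5hmC share at P21. Falls run from 0.00598% of sites under 5% to 2.88% of the sites with at least 30% in each P21 library.

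These counts depended on single libraries. Without 32-week replicate 2 the median log2 odds ratio of the members turned positive, at 0.06, below that of all sites (0.36). Without 32-week replicate 1 the median log2 odds ratio was -0.33 over the members and 0.21 over all sites. Without P21 replicate 1, 2 or 3 there were 10 falls each among members, against 125, 128 and 88 over all 248561 sites tested. With the chromosome Y class as a term 0 members were called, against 53 rises and 13 falls over all sites tested. At an unadjusted p under 0.05, 90 members and 10812 of all sites differed in that edgeR fit. Limma on logit shares called 0 of all sites, with 148 members and 23094 of all sites at an unadjusted p under 0.05. All 21 sites kept their direction in each of these fits. The part of the chromosome Y class in the result was not tested beyond that fit.

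The members were scattered over the genome. Positions fit within the mm10 chromosome lengths, although the sources name no mouse build, and each site is given by its deposited end coordinate. With gaps of at most 10000 bp, the 798 sites formed 771 groups, of which 745 held 1 site, 25 held 2 and 1 held 3. The groups of 2 or more held 53 members (6.64%). The median distance to the nearest other member was 473213 bp, the shortest was 329 bp, and 267 members had none within 1000000 bp. Per 1000 measured sites, members ranged from 2.304 on chromosome 8 to 4.54 on chromosome 4, where 75 of them lay.

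Near a member, though, another member was more common. Of measured sites 101 to 500 bp from a member 4.17% were members themselves, of those 2001 to 5000 bp away 1.37%, of those 5001 to 10000 bp away 2.48%, of those 10001 to 50000 bp away 0.912%, and of those over 1000000 bp away 0.212%. The first of these shares rests on 4 members among 96 sites, and neighbours within a pair count each other.

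The only group of 3 spanned chromosome 17 from 30204534 to 30206032, where 4 of 9 CCGG sites were measured. Its members pooled held 39.0% and 49.4% 5hmC at 32 weeks, against 45.6%, 37.97% and 41.6% at P21. The 5 sites in that span with too few tags for the selection, with 46 to 102 tags per library, held 26.1% and 18.8% at 32 weeks, against 7.84%, 12.3% and 13.1% at P21. The 7 shortest pairs spanned 330 to 3918 bp. The closest was on chromosome 17 from 34640208 to 34640537, with 36.8% and 41.2% 5hmC at 32 weeks, against 39.3%, 39.1% and 34.5% at P21. On chromosome 1 from 132911711 to 132912220 it was 37.3% and 61.8% at 32 weeks, against 39.7%, 41.5% and 40.2% at P21. On chromosome 12 from 86055868 to 86056600, chromosome 17 from 35091615 to 35093211 and chromosome 5 from 118572144 to 118574721 the averages were 40.5%, 34.8% and 41.3% at 32 weeks and 38.8%, 37.3% and 40.04% at P21. The groups overlap in these 3 pairs. They do not overlap on chromosome 12 from 99235435 to 99239352, with 47.8% and 56.8% at 32 weeks, against 36.9%, 36.7% and 36.8% at P21. On chromosome 8 from 54966347 to 54968055 the values were 45.1% and 66.1% at 32 weeks, against 39.7%, 41.2% and 46.5% at P21, and the groups overlap.

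By spacing of CCGG the members resembled the other measured sites. No other CCGG lay within 500 bp of 443 members (55.5%), against 55.7% of the other measured sites and 33.8% of the autosomal sites with fewer tags. Within 250 bp the order of the first pair turned, with 79.6% of members and 77.1% of the other measured sites. The nearest CCGG was 554 bp away as a median for members and 591 bp for the other measured sites. At the crowded end they differed, since 0 members had at least 10 other CCGG in the 500 bp on each side, a density typical of CpG islands, while 1492 of the other measured sites did (0.601%). With 3 or more such neighbours there were 39 members (4.89%), against 7.60% of the other measured sites. Those 39 had a median unmethylated share of 16.7% at 32 weeks and 13.7% at P21, against 10.7% at 32 weeks and 11.1% at P21 for the 443 isolated ones. Their median 5hmC was 41.8% at 32 weeks and 37.1% at P21, against 41.8% at 32 weeks and 37.4% at P21 for the isolated ones.

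The surroundings of the members were rich in 5hmC too, in tags that the selection never saw. Sites with fewer than 20 tags in some library could not be chosen, and they were grouped by distance to the nearest member. At 1 to 100 bp, 37 such sites pooled held 31.6% and 34.3% 5hmC at 32 weeks, against 24.8%, 21.9% and 24.5% at P21, on 288 to 412 tags. At 101 to 500 bp the shares were 18.5% and 19.4% at 32 weeks, against 15.5%, 13.5% and 13.6% at P21. At 10001 to 50000 bp they were 13.4% and 15.8% at 32 weeks, against 10.2%, 9.09% and 9.05% at P21. Beyond 1000000 bp they were 7.74% and 9.09% at 32 weeks, against 6.499%, 5.501% and 5.23% at P21. In each of the 11 distance classes the 2 values of 32 weeks exceeded the 3 of P21, as they do over all autosomal tags. From 101 bp outwards the unmethylated share was also higher near members than far away. For sites 501 to 1000 bp away it was 32.3% and 35.7% at 32 weeks, against 39.8%, 36.5% and 37.96% at P21. Beyond 1000000 bp it was 15.8% and 17.5% at 32 weeks, against 19.01%, 17.5% and 17.99% at P21.

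**Figure D5:**
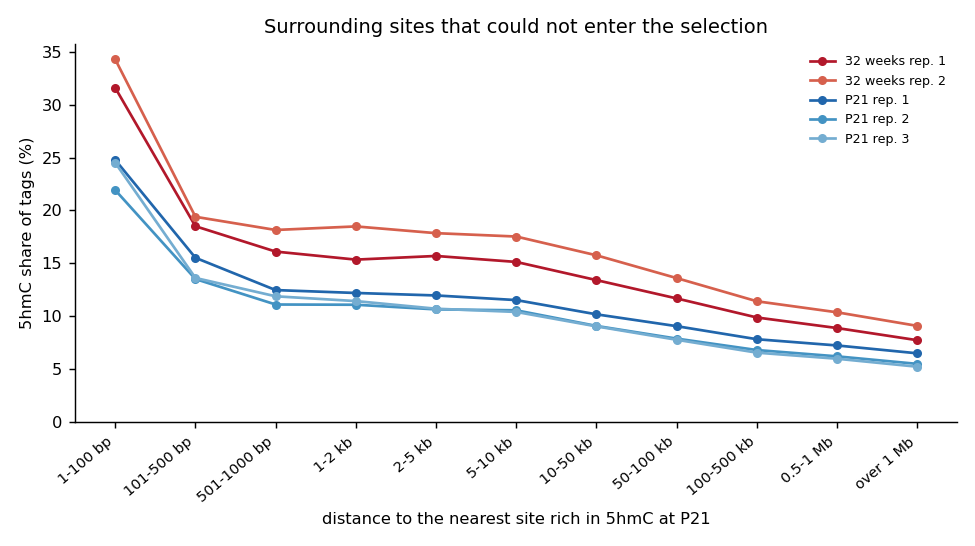
5hmC share (%) of pooled tags at autosomal sites with fewer than 20 tags in some library, by distance to the nearest of the 798 sites (classes of unequal width), 1 line per library. All lines are highest at 1 to 100 bp and lowest beyond 1000000 bp, and the 2 lines of 32 weeks lie above the 3 of P21 throughout.

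The windows around members held more 5hmC at 32 weeks. In windows of 100000 bp, the same unselected sites were tested at 32 weeks against P21. Of 733 windows with a member, edgeR called 5hmC higher in 477 (65.1%) and lower in 0 at an adjusted p under 0.05, where 31.6% of all 23930 windows rose and 0.0167% fell. Of windows without a member 30.6% rose. The median 5hmC share was 14.1% at 32 weeks and 9.22% at P21 in windows with a member, and 7.69% at 32 weeks and 5.44% at P21 in the others. The median log2 odds ratio was 0.72 with a member and 0.58 without. Windows with a member also held more tags, with medians of 525 and 518 in the 32-week libraries and 668, 604 and 804 in those of P21. The others had medians of 311 and 304 in the 32-week libraries and 387, 355 and 478 in those of P21. The part of this depth in the share called was not tested.

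Few of these calls held once the library-wide level was taken out. Relative to the odds of each library, 9 windows with a member rose and 7 fell, of 149 and 48 among all windows, and the median log2 odds ratio with a member was 0.09, against -0.04 over all windows. Rises with a member numbered 531, 316 and 354 without P21 replicates 1, 2 and 3, of 9235, 4252 and 4381 among all 23930 windows. With the chromosome Y class as a term they numbered 178, of 2276 among all windows. Limma on logit shares called 0 of all windows, with 422 windows with a member and 8342 of all windows at an unadjusted p under 0.05. Without 32-week replicate 2 the median log2 odds ratio was 0.57 with a member and 0.45 over all windows. Without 32-week replicate 1 it was 0.84 with a member and 0.71 over all windows.

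Of the 8 windows with 3 members, 4 rose. On chromosome 12 from 99200001 to 99300000, the unselected sites held 20.6% and 22.7% 5hmC at 32 weeks, against 14.8%, 15.3% and 12.3% at P21 (log2 odds ratio 0.76, SE 0.192, edgeR adjusted p = 0.00101). On chromosome 17 from 30200001 to 30300000, around the group of 3, they held 20.1% and 19.9% at 32 weeks, against 14.9%, 13.5% and 11.7% at P21 (0.70, SE 0.195, edgeR adjusted p = 0.00293). On chromosome 5 from 125100001 to 125200000 they held 14.4% and 16.3% at 32 weeks, against 9.49%, 8.997% and 8.39% at P21 (0.89, SE 0.177, edgeR adjusted p = 3.61e-05). On chromosome 4 from 140100001 to 140200000 they held 21.3% and 22.96% at 32 weeks, against 16.6%, 15.96% and 15.2% at P21 (0.59, SE 0.178, edgeR adjusted p = 0.00621). Groups did not overlap in any of the 4. Their choice by the size of the rise favours this order, and its share over all windows was not counted. Without 32-week replicate 2 the windows on chromosomes 12 and 4 had adjusted p of 0.0568 and 0.107 by edgeR, and those on chromosomes 5 and 17 were still called. With the chromosome Y class as a term only the window on chromosome 5 was called (edgeR adjusted p = 0.0282), and the others had adjusted p from 0.115 to 0.141. Relative to the odds of each library 0 of the 4 were called, with adjusted p from 0.349 to 0.943.

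The 8 windows with 3 members were tied for the most. The first 5 by chromosome lay on chromosome 2 from 157000001, chromosome 4 from 140100001, chromosome 5 from 125100001, chromosome 8 from 54900001 and chromosome 11 from 118600001. Over all 8, ordered by the mean of the 32-week libraries, the pooled 5hmC of the members ran from 30.6% and 37.8% at 32 weeks on chromosome 11, against 31.9%, 39.8% and 38.5% there at P21, to 47.2% and 62.4% at 32 weeks on chromosome 8, against 47.7%, 38.5% and 47.1% at P21. On chromosome 8 the window held 7 measured sites, of which 3 were members, and the other 4 held 2.59% and 5.26% at 32 weeks, against 4.196%, 1.63% and 1.604% at P21. Rich and poor sites thus lay within the same 100000 bp.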

How the data were processed

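The members and lists were chosen with earlier results of these data known. Per the labels' protocols, HpaII cut unmethylated sites for a first tag, and digests with MspI and NlaIII and, after glucosylation, with MspI gave the other tags. The submitters' processing notes name Bowtie2 2.3.4.1, cutadapt 1.5 and UMI-tools 0.5.4. How tags were counted is not given in the sources used here. The notes list hg38 alone, which cannot hold for mouse positions.

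The deposited tables hold, per CCGG site, the fraction of unmethylated, 5mC and 5hmC tags and the count of tags, without a header. Only 1 fraction was higher at crowded sites and was taken as unmethylated. The larger of the other 2 was taken as 5mC, and every 5hmC value rests on this. Fraction times count lay within 0.00357 of a whole number, so tags of each state were recovered.

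Tags of 1 state against others were tested in edgeR 4.0.16 by quasi-likelihood (a term for each library, age by state, common dispersion, Benjamini-Hochberg, threshold 0.05) in R 4.3.3, over all sites with at least 20 tags per library, at least 10 non-5hmC tags for 5mC against unmethylated, or all windows with at least 20 tags. Alternatives were DESeq2 1.42.0 (windows), limma 3.58.1 on logit shares (pseudocount 0.5), odds relative to each library, a chromosome Y class, other minima, a replicate block and each library left out. Sites were named by rank: the 5 highest at P21, the 5 highest and 5 lowest at 32 weeks, 3 on each side of the threshold, the 8 largest groups, the 5 windows with most members (8 were tied, and the first by chromosome were taken), the 4 largest falls and rises called, and the 4 largest rises among windows of at least 3 members. Cell type markers were not used, as no mouse annotation was at hand. Python 3.11.15, SciPy 1.17.1 and matplotlib 3.10.9 were used.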

Additional observations from a re-analysis of the deposited data

How the results depend on the processing

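The number of sites followed the rule: 2373, 209 and 47 at 25%, 35% and 40% 5hmC, 2225 and 318 at 10 and 30 tags, and 961 to 1721 with 1 library left out. Of these, 1388, 159, 39, 1410 and 248 held 30% in both 32-week libraries, as did 804 to 1039 with 1 P21 library left out. With 1 32-week library left out, 726 and 826 reached 30% in the remaining one. The median 5hmC at 32 weeks was 49.3% at the 40% rule, 38.05% without 32-week replicate 2 and 44.4% without replicate 1. In groups of 2 or more lay 2.88% of members with gaps of 5000 bp and 16.8% with 50000 bp, and 79.6% had no other CCGG within 250 bp, against 77.1% of the other measured sites, so that the order of the 2 sets turned from that at 500 bp (55.5% against 55.7%).

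The 2 members called lower in 5hmC became 0 with limma, the replicate block or the chromosome Y class. They became 1 at 10 tags and 0 to 1 with 1 P21 library left out. With at least 30 tags 0 of 318 members were called lower. Both sites lay outside that fit, with as few as 22 and 26 tags in a library, so it could not test them. In the 4 fits without a call among members, 18, 17, 19 and 28 members had an unadjusted p under 0.05. Over all measured sites 29711, 12136 and 15799 had it in the first 3, and 12641 of 94804 with at least 30 tags. The 21 falls of 5mC against unmethylated tags became 0 with limma, 2 with the replicate block, 0 with the chromosome Y class, 13 at 10 tags and 1 to 14 with 1 library left out. The 1 rise became 0 with limma, the block, the class, at 10 tags and with any 1 P21 library left out. At 30 tags 2 of 315 members rose, against 961 of all 94791 sites. Rises in windows numbered 0 with limma, 9 relative to each library (with 7 falls), 38 with the block, 178 with the class and 138 to 531 with 1 library left out. The window on chromosome 4 from 140100001 had a log2 odds ratio of -0.033 relative to each library. With the block, 28 of all 248561 sites tested fell and 442 of all 23930 windows rose. At 10 tags 295 of 604650 sites fell. The cause of these shifts was not tested. The block pairs samples by number alone, and the deviations of same-numbered libraries had correlations of -0.07 and -0.01. With 2 libraries in the older group, their deviations mirror each other, so this check cannot decide whether the pairing is real. Whether a call lost under the block reflects a weaker effect was not tested. The held-out differences kept their direction with each P21 library held out and at 40% 5hmC.

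A median of 31 tags per site at 32 weeks limits the precision of a single site, and with 2 libraries against 3 no exact permutation test passes 0.05. Without a mouse annotation no site is tied to a gene.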
